A study of Mus musculus with 4 samples.

Results

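Ribosome biogenesis is represented here by 36 genes of RNA polymerase I transcription, rRNA modification and ribosomal subunit assembly. They were taken as a list of gene symbols and matched by NCBI gene ID to rows of the count table, and all 36 were among its 27179 genes and among the 13580 genes that were tested. In the nucleolus, RNA polymerase I copies the ribosomal DNA into a long precursor, small nucleolar RNPs (snoRNPs) guide the chemical modification of its nucleotides, and large assemblies of proteins cut and fold it into the small and the large ribosomal subunit. The pathway is one of the main consumers of energy in a growing cell, and many of its genes are known targets of the transcription factor Myc.

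MC38, a mouse colon carcinoma cell line of wild-type genotype, was grown at 20% oxygen (normoxia) or 1.5% oxygen (hypoxia), each without or with the cytokine IFN-γ. Each of these 4 conditions gave 1 RNA-seq library, and none had a replicate. IFN-γ at 5 ng/mL for 24 h is the treatment given for most experiments of the study, and the time under hypoxic conditions is not given in the sources used here. The comparisons ask what low oxygen and IFN-γ each did to these genes. The totals were nearly equal, from 34302971 to 34537939 counts on genes. The stimuli left their marks on both control lists: 15 of 15 hypoxia response genes rose under hypoxic conditions (median log2 change 1.22) and 15 of 15 IFN-γ response genes rose with IFN-γ (median 2.66). The colon label had little support from epithelial markers. Cdh1, Cdx2 and Lgr5 were at 0 counts in every library, where a count of 0 allows up to 3, 9 of 10 epithelial markers stayed under 1 CPM (counts scaled to a common library size), and their summed level was 2.71 to 3.38 CPM. Leukocyte markers summed to 0.204 to 0.664 CPM, endothelial markers to 0.904 to 1.56 CPM and fibroblast markers, mostly Pdgfra, to 36.6 to 44.2 CPM.

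Each effect was fitted with edgeR in an additive model of oxygen and IFN-γ over all 4 libraries. The spread behind its p-values is the departure of genes from additivity, with 1 residual degree of freedom. A real interaction of both stimuli and culture-to-culture differences that break additivity enter it alike. A difference shared by both hypoxic cultures, or by both IFN-γ cultures, goes into the fitted change and not into the spread. The p-values thus do not cover it. A gene was called at a Benjamini-Hochberg adjusted p under 0.05 over all tested genes. Changes between 2 single libraries carry 95% intervals for counting error only and no test. Counts are relative to the rest of a library, so fewer transcripts per cell and fewer expressing cells cannot be told apart.

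Hypoxia lowered 28 of the 36 members and raised none, and no member passed the test for IFN-γ. Over all tested genes, hypoxia lowered 6.83% and raised 8.21%. Those genes were not matched to the members for counts, and a small change is called more readily at higher counts. The members were also chosen with earlier results of these data known. The members' median hypoxia change was -0.24 on the log2 scale, against 0.00 over all tested genes, and their changes ran from -0.41 for Rrp9 to 0.01 for Polr1c. The falls were small, since at the ends of the lowered members Npm1 fell by 7.67% and Rrp9 fell by 24.7%. All members were abundant genes, with between 1272 and 118694 counts in a library. By role, 5 of 8 RNA polymerase I genes, 5 of 8 snoRNP genes, 8 of 9 small subunit genes and 7 of 8 large subunit genes were lowered. So were 3 of 3 genes grouped as nucleolar chaperones, a group that also holds the rRNA processing protein Mybbp1a. By DESeq2's Wald test 20 members were lowered (1.58% of all tested genes) and none raised. Of the 28 lowered in the edgeR fit, the 8 it did not call were Polr1a, Polr1e, Nhp2, Utp15, Ltv1, Rrs1, Nop16 and Npm1. Their DESeq2 adjusted p ran from 0.057 to 0.30. When hypoxia was the single term of the edgeR model, only Nolc1 and Nop56 were called (0.191% of all tested genes). That fit counts any IFN-γ response as spread, though no member was called for IFN-γ. Why the other calls were lost was not tested.

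**Figure D1:**
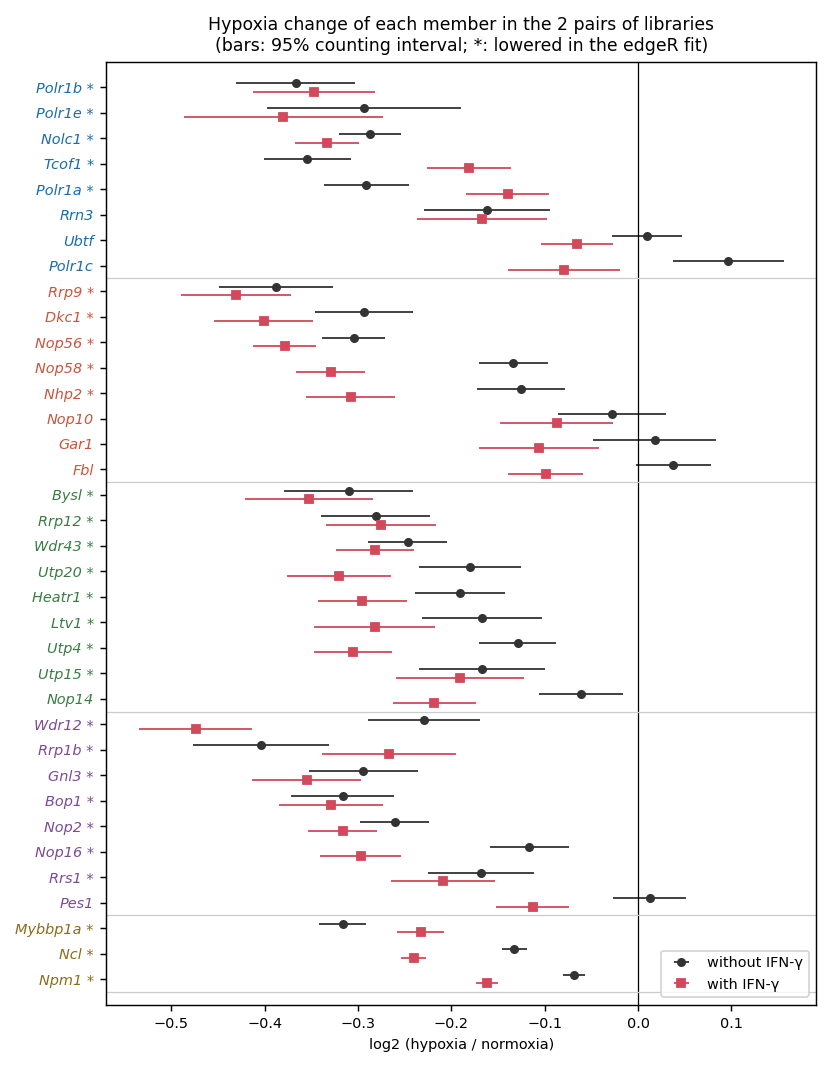
Hypoxia change of each member on the log2 scale in the pair of libraries without IFN-γ (black circles) and in the pair with IFN-γ (red squares), by role (polymerase I blue, snoRNPs orange, small subunit green, large subunit purple, chaperones brown), with 95% counting intervals. All 36 squares and 31 of 36 circles lie below 0, and an asterisk marks the 28 members lowered in the edgeR fit.

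The pair of libraries without IFN-γ and the pair with it share no library. The change was below 0 in 31 of 36 members without IFN-γ and in 36 of 36 with it, with medians of -0.19 and -0.28. Over all tested genes it was below 0 in 6520 and 6787 of 13580, with medians of 0.01 and 0.00. In 30 of 36 members the counting interval lay below 0 in both pairs, as in 12.2% of all tested genes. Counting intervals are narrower at higher counts, and the tested genes were not matched to the members for counts. In 30 of 36, both hypoxic libraries lay under both normoxic libraries in CPM, as in 24.4% of all tested genes. The 6 members in which hypoxic and normoxic libraries overlapped were Polr1c, Ubtf, Fbl, Gar1, Nop10 and Pes1.

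The promoters were searched for the E-box CACGTG, the site that Myc with Max can bind. RefSeq windows from 250 bases before to 50 after the start were at hand for 30 of the 36 members, in 38 windows. CACGTG stood in a window of 8 of the 30 members (26.7%), against 11.7% of 10316 tested genes and 8.09% of all 27025 genes with a window. Of the other pathway genes, 18 of 122 held it (14.8%). Counted by window it was 8 of 38 (21.1%), against 9.84% of the tested genes' windows. It was held by 6 of 23 lowered members and by 2 of 7 others. The start is that of a RefSeq transcript and need not be the outer end of the gene. The 30 bases around each box are shown, 5′ to 3′ on the gene's strand in the build GRCm38.p6, with the box in capitals, so that the flanks can be compared.
Nop2, 60 bases before the start, chr6:125131811-125131840, plus strand: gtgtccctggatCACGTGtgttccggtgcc
Rrn3, 215 bases before the start, chr16:13780472-13780501, plus strand: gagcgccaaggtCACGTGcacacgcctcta
Rrn3, 48 bases before the start, chr16:13780639-13780668, plus strand: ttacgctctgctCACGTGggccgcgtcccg
Pes1, base 3 after the start, chr11:3963965-3963994, plus strand: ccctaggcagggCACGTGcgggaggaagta
Utp4, base 16 after the start, chr8:106893643-106893672, plus strand: tgcgcaagcgcgCACGTGgggccggggcgg
Wdr43, base 18 after the start, chr17:71616220-71616249, plus strand: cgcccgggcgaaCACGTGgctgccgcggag
Ltv1, base 29 after the start, chr10:13193092-13193121, minus strand: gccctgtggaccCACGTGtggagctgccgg
Utp20, base 38 after the start, chr10:88826765-88826794, minus strand: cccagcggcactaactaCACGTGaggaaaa
Mybbp1a, base 41 after the start, chr11:72441347-72441376, plus strand: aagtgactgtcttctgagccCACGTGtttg
In 6 of these 8 genes the box lay after the start. Of the 8, Pes1 and Rrn3 were not called and the other 6 fell.

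Of the 4 RNA polymerase I subunits, 3 were lowered. Polr1b (gene ID 20017, chromosome 2, 129100995 to 129126594), the second largest subunit of the enzyme, had 4580 counts in the control normoxic, 3545 in the control hypoxic, 4333 in the IFN-γ normoxic and 3403 in the IFN-γ hypoxic library. Its fitted hypoxia change was -0.36 (SE 0.061, edgeR adjusted p = 2.59e-07). In that order of libraries, which is kept from here on, Polr1e, a subunit of the enzyme's initiation and elongation module, had 1688, 1375, 1657 and 1272 counts. Both hypoxic libraries were low for both subunits, with a fall of 0.34 on the log2 scale for Polr1e (edgeR adjusted p = 0.00017). Polr1a, the largest subunit, had 8691, 7090, 8464 and 7676 counts. It fell by 0.22 on the log2 scale (edgeR adjusted p = 0.0015), with -0.29 without and -0.14 with IFN-γ. Polr1c, a subunit that RNA polymerase III also uses, had 4384, 4680, 4610 and 4360 counts. Its level was 0.10 higher under hypoxic conditions without IFN-γ and 0.08 lower with it on the log2 scale, and the fitted change of 0.01 was not called (edgeR adjusted p = 0.95).

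Of the factors around the enzyme, the nucleolar phosphoproteins fell and the initiation factors did not pass the threshold. Nolc1, a chaperone that links snoRNPs with RNA polymerase I, had 15872, 12985, 15741 and 12482 counts and fell by 0.31 on the log2 scale (SE 0.051, edgeR adjusted p = 6.86e-08). Tcof1, the treacle protein that supports rDNA transcription, had 8607, 6721, 8459 and 7455 counts. Its fall was deeper without IFN-γ (-0.35, interval -0.40 to -0.31) than with it (-0.18, -0.23 to -0.14), and the fitted change was -0.27 (edgeR adjusted p = 3.66e-05). Rrn3, which recruits the polymerase to the rDNA and whose own promoter window holds 2 E-boxes, had 3737, 3335, 3573 and 3179 counts, with a fitted change of -0.16 just outside the threshold (edgeR adjusted p = 0.055) and values of -0.16 and -0.17 in the 2 pairs. Ubtf, the factor that binds and opens the rDNA promoter, had between 10701 and 11427 counts, with a fitted change of -0.03 (edgeR adjusted p = 0.79).

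Among the snoRNP proteins, 2 of 3 box C/D and 2 of 4 box H/ACA core proteins were lowered, and so was the U3 protein Rrp9. In the box C/D class, which directs 2′-O-methylation, the scaffold protein Nop56 had 15799, 12769, 16069 and 12347 counts, and its partner Nop58 12424, 11304, 13350 and 10616. Nop56 fell by 0.34 (SE 0.051, edgeR adjusted p = 1.53e-09) and Nop58 by 0.23 on the log2 scale (edgeR adjusted p = 0.00020). The methyltransferase of the same particle, Fbl, had 9861, 10105, 10424 and 9724 counts and a fitted change of -0.03 (edgeR adjusted p = 0.78). Of the 31-base words in their transcripts, 22.4% for Nop56 and 20.8% for Fbl also occur in other genes, so their counts are less certain.

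In the box H/ACA class, which directs pseudouridylation, the pseudouridine synthase Dkc1 (gene ID 245474, chromosome X, 75095854 to 75109777) had 6573, 5353, 6672 and 5047 counts. It fell by 0.35 on the log2 scale (SE 0.057, edgeR adjusted p = 7.85e-08). The core protein Nhp2 had 7630, 6983, 7845 and 6331 counts and fell by 0.22 (edgeR adjusted p = 0.0017), more with IFN-γ (-0.31) than without (-0.13). The other core proteins were not called, with fitted changes of -0.04 for Gar1 (3715 to 4029 counts) and -0.06 for Nop10 (4316 to 4815 counts). Rrp9 (gene ID 27966, chromosome 9, 106475963 to 106485424), a protein of the U3 snoRNP, which directs early cleavage of the precursor, had 5049, 3852, 5503 and 4079 counts. Both hypoxic libraries lay far under both normoxic ones, and its fall of 0.41 on the log2 scale (SE 0.060, edgeR adjusted p = 4.78e-10) was the largest of the 36. The contrasts between proteins of 1 particle were not tested.

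Of the 9 small subunit members, 8 were lowered. The 9 include proteins of the processome, the particle that forms on the 5′ part of the precursor, and factors of later steps. Bysl, which acts late in small subunit maturation, had 3817, 3073, 3916 and 3065 counts and fell by 0.33 (SE 0.063, edgeR adjusted p = 4.70e-06). Rrp12, an export and maturation factor, had 5270, 4329, 5096 and 4207 counts, with changes of -0.28 in both pairs. Wdr43, a protein of the UTP-A subcomplex, had 9804, 8247, 10251 and 8424 counts. For these 3 genes the counting intervals of the 2 pairs overlapped. For the next 3 they did not, and the value was lower with IFN-γ. Utp20 had 5724, 5043, 5887 and 4710 counts, with -0.18 without and -0.32 with IFN-γ. Heatr1, a UTP-A protein, had 7403, 6476, 7794 and 6345 counts, with -0.19 and -0.30. Utp4, of the same subcomplex, had 9916, 9053, 10100 and 8165 counts, with -0.13 and -0.31. The fitted changes of Rrp12, Wdr43, Utp20, Heatr1 and Utp4 ran from -0.28 to -0.22, with edgeR adjusted p from 2.85e-05 to 0.00099.

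Ltv1, a factor bound to the late small subunit, had 4130, 3672, 4201 and 3451 counts and a fitted change of -0.22 (edgeR adjusted p = 0.0035). Utp15, of the UTP-A subcomplex, had 3740, 3325, 3697 and 3237 counts, and its call was close to the threshold (-0.18, edgeR adjusted p = 0.033). Nop14, a central processome protein, was the member not called. It had 8166, 7813, 8721 and 7489 counts, with -0.06 (interval -0.11 to -0.02) without IFN-γ, -0.22 (-0.26 to -0.17) with it and a fitted change of -0.14 (edgeR adjusted p = 0.065).

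In the large subunit group, Pes1, Bop1 and Wdr12 form the PeBoW complex, which is needed for maturation of the large subunit's rRNA. Bop1 had 5901, 4730, 5821 and 4629 counts and fell by 0.32 on the log2 scale (SE 0.058, edgeR adjusted p = 1.36e-06). Wdr12 had 4827, 4110, 5200 and 3740 counts and fell by 0.35 (SE 0.060, edgeR adjusted p = 2.17e-07). Pes1 had 10582, 10655, 11028 and 10187 counts, with a fitted change of -0.05 that was not called (edgeR adjusted p = 0.60). The difference between the proteins of the complex was not tested. Of the 31-base words in the transcripts of Pes1, 32.4% also occur elsewhere in the annotation, which leaves its count uncertain. Wdr12 had the largest gap between the pairs of all members, -0.23 without and -0.47 with IFN-γ.

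Of the other large subunit factors, Gnl3, the GTPase also known as nucleostemin, had 5285, 4302, 5390 and 4210 counts and fell by 0.32 (edgeR adjusted p = 1.72e-06). Rrp1b had 3584, 2704, 3491 and 2899 counts and fell by 0.34 (edgeR adjusted p = 5.33e-06), more without IFN-γ (-0.40) than with it (-0.27). Nop2, an rRNA methyltransferase, had 12771, 10640, 13007 and 10434 counts and fell by 0.29 (edgeR adjusted p = 1.35e-06). For each of these 3 genes both hypoxic libraries were at the bottom. Nop16 had 9355, 8615, 9699 and 7885 counts and fell by 0.21 on the log2 scale (edgeR adjusted p = 0.0021). Rrs1, which helps to bring the 5S RNP to the early large subunit, had 5288, 4697, 5577 and 4820 counts and fell by 0.19 (edgeR adjusted p = 0.013).

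All 3 members grouped as nucleolar chaperones were lowered, and they had more counts than any other member. The group name does not describe Mybbp1a, which was placed with Npm1 and Ncl. Npm1 had the smallest change of the members called. Npm1, nucleophosmin, had 116576, 110973, 118694 and 106007 counts. It fell by 0.12 on the log2 scale (SE 0.042, edgeR adjusted p = 0.043), a call close to the threshold, and 29.2% of its words also occur in other genes. Ncl, nucleolin, had 93071, 84740, 96546 and 81640 counts and fell by 0.19 (edgeR adjusted p = 0.00029). Mybbp1a, a nucleolar Myb-binding protein that takes part in rRNA processing, had 28753, 23050, 28342 and 24092 counts and fell by 0.27 (SE 0.048, edgeR adjusted p = 4.86e-07).

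**Figure D2:**
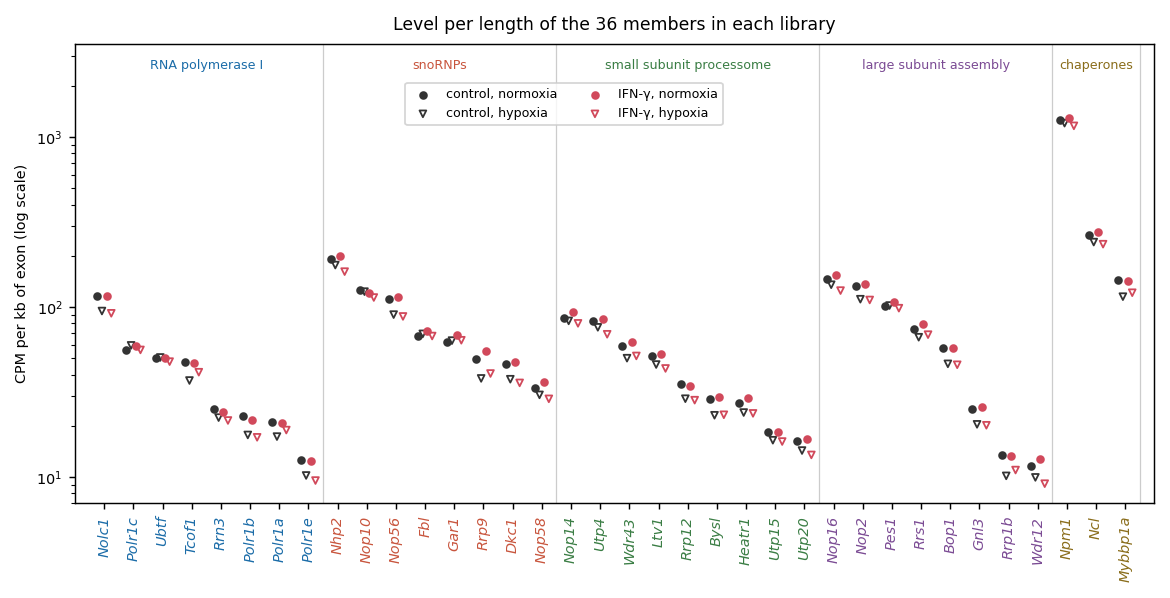
Level per length of the 36 members in CPM per kb of exon, on a log scale, 1 point per library (circles normoxia, open triangles hypoxia, black control, red IFN-γ), grouped by role. Npm1 averages 1232 and Wdr12 10.9, and the triangles lie under the circles for 30 members.

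Levels per length differed over a 113-fold range, far more than the hypoxia changes. The scale is CPM per kb of all exon bases, averaged over the libraries. On it the highest were Npm1 (1232), Ncl (254) and Nhp2 (182), and the lowest were Rrp1b (11.9), Polr1e (11.2) and Wdr12 (10.9). In the order of libraries used above, Wdr12 stood at 11.7, 9.94, 12.7 and 9.13 CPM per kb and Polr1e at 12.5, 10.2, 12.4 and 9.53, so these neighbours overlap. Npm1 stood at 1263, 1204, 1299 and 1161, with no other member near it. With the length of the longest transcript in place of all exon bases, Npm1 was at 2010 and Wdr12 at 13.0. Rrp1b then stood at 18.9, and Utp20 at 17.6 was lower. Gnl3 moved from 22.8 to 61.5. The ranks thus rest on annotated lengths, and which transcripts the cells use was not examined.

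**Figure D3:**
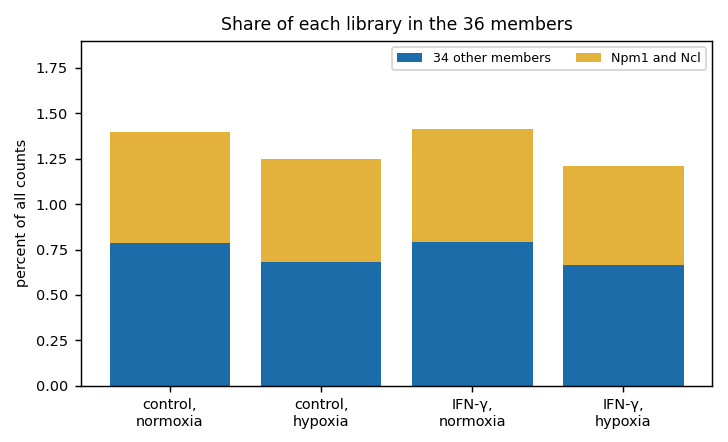
Percent of all counts in the 36 members in each library, with Npm1 and Ncl (yellow) stacked on the 34 other members (blue). The columns reach 1.40 and 1.42 under normoxic and 1.25 and 1.21 under hypoxic conditions.

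The 36 members together took 1.40% of the control normoxic library, with an exact binomial 95% interval of 1.39% to 1.40%. They took 1.25% (1.24% to 1.25%) of the control hypoxic library, 1.42% (1.41% to 1.42%) of the IFN-γ normoxic and 1.21% (1.21% to 1.21%) of the IFN-γ hypoxic library. The share thus dropped by 10.7% under hypoxic conditions without IFN-γ and dropped by 14.6% with it. Npm1 and Ncl made up 0.611%, 0.567%, 0.623% and 0.545% of the 4 libraries. The other 34 members made up 0.785%, 0.680%, 0.793% and 0.664%, and their share dropped by 13.4% without and dropped by 16.2% with IFN-γ. The 84 cytoplasmic ribosomal protein genes took 7.06%, 6.83%, 6.88% and 6.44%, which dropped by 3.32% without and dropped by 6.32% with IFN-γ. No share was tested.

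For IFN-γ, 0 of the 36 members were raised, against 4.76% of all tested genes, and 0 were lowered, against 1.1%. The smallest edgeR adjusted p was 0.353, for Rrp9, 1 member had an unadjusted p under 0.05, and DESeq2 called 0 members. The fitted IFN-γ changes ran from -0.08 for Nop10 to 0.12 for Rrp9, with a median of 0.00. In single pairs the median was 0.04 under normoxic and -0.04 under hypoxic conditions. Rrp9, with 0.14 and 0.10, was the single member whose counting intervals lay above 0 in both pairs, and in none did both lie below 0. In 12 of 36 members the interval lay above 0 under normoxic and below 0 under hypoxic conditions, as in 3.23% of the 10443 genes that had 100 or more counts in each library. The opposite sides for hypoxia, above 0 without and below 0 with IFN-γ, were seen in Polr1c alone, as in 1.84% of these genes. Neither pattern was tested, and these genes were not matched to the members for counts, which set the width of the intervals.

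**Figure D4:**
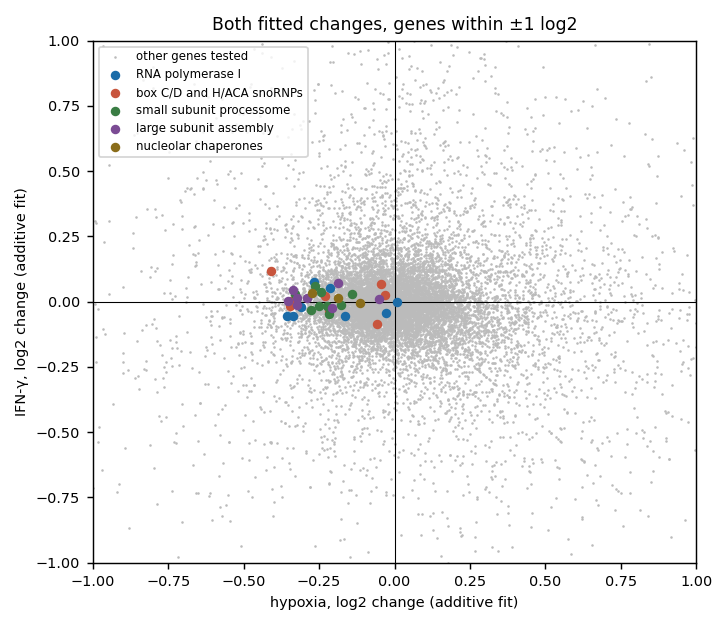
Fitted hypoxia change (horizontal) against fitted IFN-γ change (vertical) on the log2 scale for all tested genes within 1 log2 unit of 0 (grey) and for the 36 members (coloured by role). The members spread from -0.41 to 0.01 along the hypoxia axis and lie between -0.08 and 0.12 along the IFN-γ axis.

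The hypoxia change with IFN-γ minus that without it had a median of -0.07 over the members, and it was below 0 in 30 of 36. Over all 13580 tested genes the median was -0.02 and 7348 lay below 0, with 2306 counting intervals below 0 and 1812 above. The counting interval of this difference excluded 0 in 23 of 36 members, 19 below and 4 above. Over the 10443 genes that had 100 or more counts in each library that share was 34.5%, and their central 95% ran from -0.36 to 0.40. All members lay inside that range, from -0.24 for Wdr12 to 0.17 for Tcof1. The 10443 genes were not matched to the members for counts, and counting error is wider at fewer counts. Neither the 34.5% nor the range thus shows what is usual at the members' counts. The 4 members whose interval lay above 0 were Tcof1, Polr1a (0.15), Rrp1b (0.14) and Mybbp1a (0.08). All 8 snoRNP members had a value below 0, 6 of them with the interval below 0. With 1 library per condition this difference could not be tested.

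**Figure D5:**
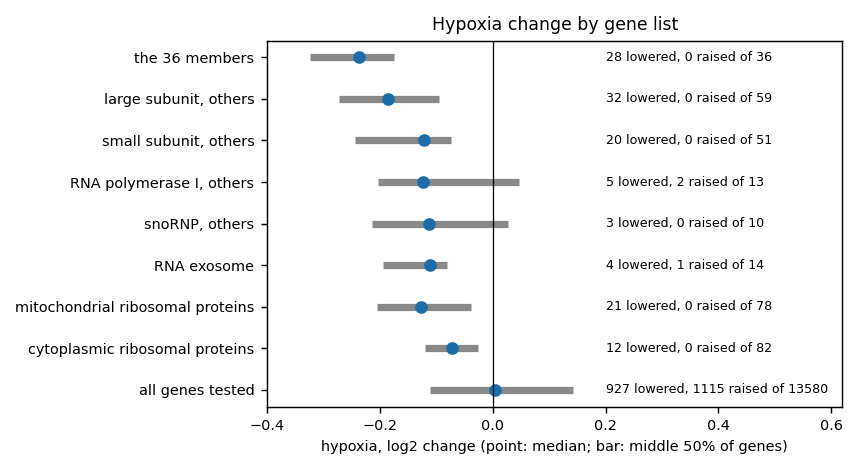
Hypoxia change on the log2 scale in each gene list: median (point), middle 50% of genes (bar) and the number called by edgeR at right. The members' median is -0.24, the lists of other pathway genes lie between -0.19 and -0.11, and all tested genes lie at 0.00.

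Other genes of the pathway were read from lists of 150 symbols, of which 147 were matched and tested. Hypoxia lowered 64 of them (43.5%) and raised 3, with a median change of -0.14. Over all tested genes it lowered 6.83% and raised 8.21%, without matching to these lists for counts. Of the large subunit factors 32 of 59 were lowered (median -0.19), and of the small subunit factors 20 of 51 (median -0.12). Of 13 other RNA polymerase I genes 5 were lowered and 2 raised (median -0.12), of 10 other snoRNP factors 3 were lowered, and of 14 exosome genes 4 were lowered and 1 raised. The polymerase I list includes subunits that other RNA polymerases also use. Of these, Polr1d, Polr2e and Polr2h were lowered, and Polr2f, Polr2k and Polr2l were not called. Mdn1, the AAA ATPase that strips factors from the large subunit precursor, had 3861, 2825, 3891 and 2797 counts and the deepest fall (-0.46, edgeR adjusted p = 2.50e-11). Pwp2, of the UTP-B subcomplex, fell by 0.46, Urb1, a large subunit factor, by 0.42, and Tbl3, also of UTP-B, by 0.42 on the log2 scale. At the other end of the calls stood the exosome cofactor Mphosph6, which rose by 0.26 (2066, 2506, 2101 and 2462 counts), the RNA polymerase I terminator protein Ttf1, which rose by 0.23, and Baz2a, a subunit of the rDNA silencing complex NoRC, which rose by 0.17. The helicase Ddx27 had the smallest fall among those called, 0.14 on the log2 scale. Baz2a did not change alike in both pairs, with 4751, 4804, 4369 and 5431 counts.

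IFN-γ raised 2 of the 147 genes and lowered none, against 4.76% raised and 1.1% lowered over all tested genes. Noc4l, a small subunit factor, had 3628, 2756, 4319 and 3742 counts and rose by 0.36 with IFN-γ (edgeR adjusted p = 3.65e-07) while it fell by 0.30 with hypoxia. Nufip1, which helps to assemble box C/D snoRNPs, had 1492, 1500, 1713 and 2009 counts and rose by 0.32 with IFN-γ (edgeR adjusted p = 0.00030). Of 82 cytoplasmic ribosomal proteins tested 12 were lowered by hypoxia (14.6%, median -0.07), and of 78 mitochondrial ones 21 (26.9%, median -0.13), with none raised. The share of all tested genes lowered by hypoxia was 6.83%, again without matching for counts. These 2 lists were added after the data were seen. The mRNA of Myc had 3278, 2842, 3359 and 3289 counts, and its hypoxia change of -0.12 was not called (edgeR adjusted p = 0.23), with -0.20 without and -0.03 with IFN-γ.

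Some members hold snoRNA genes in their introns, so 1 transcript gives both a protein of the pathway and a guide RNA. GENCODE places 19 snoRNA genes inside 6 members on the same strand: 5 in Nop56, 4 in Nop58, 3 each in Wdr43, Gnl3 and Ncl, and 1 in Dkc1. All 6 of these hosts were lowered under hypoxic conditions, and so were 22 of the 30 members without one. With 28 of all 36 members lowered, 6 hosts are too few to show a difference, and none was tested. The snoRNAs themselves were not analysed here.

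Beside the E-box, 11 other motifs were searched in the promoter windows on both strands. Of these, ACGTG, the core of the hypoxia response element and part of every CACGTG, stood in 14 of 30 members (46.7%, against 29.4% of tested genes). The ETS site CCGGAAG stood in 10 of 30 (33.3% against 20.1%), the GC box GGGCGG in 23 of 30 (76.7% against 67.9%) and the STAT site TTCNNNGAA in 4 of 30 (13.3% against 8.36%). CTTCCG, which overlaps the ETS site read on the other strand, stood in 15 of 30 (50% against 35.1%), CACATG in 7 (23.3% against 10.6%, and 8.2% of the other pathway genes) and CANNTG, which includes CACGTG and CACATG, in 21 (70.0% against 67.1%). GCCAAT stood in 4 (13.3% against 22.3%), ATGGCGG in 4 (13.3% against 9.39%), and the palindromic sites of Kaiso and NRF1 in none (1.13% and 2.29% of tested genes). These matches describe the windows and were not tested.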

How the data were processed

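The labels describe poly-A selected, strand-specific, paired-end libraries, while the paper's text speaks of total RNA. Reads were aligned with HISAT2, and the submitters' processing notes name featureCounts and mm10. Versions, counting options and the gene annotation are not given in the sources used here. What the authors deposited is 1 table of raw gene counts, whole numbers that were not normalized.

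The counts were tested with edgeR 4.0.16 (R 4.3.3, quasi-likelihood, TMM, default filter at 10 counts, additive model, Benjamini-Hochberg at 0.05) over 13580 genes. SEs were derived from the F statistic. DESeq2 1.42.0 was an alternative. Pair changes are log2 ratios of TMM-scaled counts with 0.5 counts added, with exact (Clopper-Pearson) conditional 95% intervals that cover counting error only. Members, gene lists and tests were chosen with earlier results of these data known. Values are given for all called members, for the levels at both ends, and for the pathway genes with the 4 largest and 4 smallest hypoxia changes among those called. The motifs, the ribosomal protein lists and 3 alternatives were added after seeing the data. Symbols came from RefSeq for GRCm38.p6, and gene bounds and lengths from GENCODE for GRCm38, the assembly mm10 names. Polr1f, Polr1g and Polr1h were not matched and not used here.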

Additional observations from a re-analysis of the deposited data

Results flagged for a closer look

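Polr1c was the single member whose counting intervals lay on opposite sides of 0 in the 2 hypoxia pairs. Its log2 change was 0.10 without IFN-γ and -0.08 with IFN-γ, a difference of -0.18. For IFN-γ, 12 members lay above 0 under normoxic conditions and below 0 under hypoxic conditions, each with both counting intervals off 0, as in 3.23% of well-counted genes. With total counts in place of TMM it was 9 members, an alternative added after seeing the data. The share of well-counted genes was not counted for it. The differences, hypoxic minus normoxic on the log2 scale, were -0.24 for Wdr12, -0.20 for Nop58, -0.18 for Nhp2, Nop16, Utp4 and Polr1c, -0.16 for Nop14, -0.14 for Fbl and Utp20, -0.13 for Pes1, -0.11 for Ncl and -0.093 for Npm1. None of these differences was tested, since each condition had 1 library. They are the same quantity as the difference between the hypoxia changes, and all lie inside the central 95% of well-counted genes. Well-counted genes were not matched to the members for counts. Neither their range nor the 3.23% thus shows what is usual at the members' counts.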

How the results depend on the processing

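No paired analysis was possible because each condition has 1 library and so no replicate number to pair beyond the additive model, which already compares within each level of the other stimulus. Leaving a library out of the additive model leaves no residual degree of freedom, so the single pairs stand in its place. The number of members lowered by hypoxia was 28 with DESeq2's size factors and with total counts in edgeR, 27 without a filter on low counts, 27 with at least 10 counts in every library and 20 by DESeq2's Wald test. It was 2 with hypoxia alone in the model, which counts any IFN-γ response as spread. No member was called for IFN-γ, and why the other calls were lost was not tested. Of all tested genes, 6.83% were lowered in the additive edgeR fit, 1.58% by DESeq2's Wald test and 0.191% with hypoxia alone. They were not matched to the members for counts. The shares of all genes in the other alternatives were not counted. Of the 28, 20 were called in all 5 alternatives that keep both stimuli. Among the 32 members with under 20% of words in other genes 26 were lowered. No alternative raised a member under hypoxia or called one for IFN-γ. The median hypoxia change ran from -0.25 to -0.24. Polr1c, which was not called, turned from 0.01 to -0.00020 without the filter. The share of the libraries in the members was 0.785%, 0.680%, 0.793% and 0.664% without Npm1 and Ncl, in the order control normoxic, control hypoxic, IFN-γ normoxic and IFN-γ hypoxic. Against the TMM effective library size it was 1.38%, 1.24%, 1.43% and 1.22% in that order. Medians of the pairs and of the difference kept their sign with 5 counts added, and those of the pairs with total counts. Variation between cultures was not measured, so small falls and calls near the threshold, as for Npm1 and Utp15, rest on 4 libraries alone.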
